A study of Homo sapiens with 16 samples.

Results

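Genes for 8 long noncoding RNAs were read in HUH6 cells: MALAT1, NEAT1, MIR210HG, GAS5, SNHG1, SNHG8, SNHG12 and SNHG15. They were taken by name from a table of raw read counts, as 8 of its 58735 genes, and all 8 were found and passed the filter on low counts. HUH6 is an established human hepatoblastoma line, a liver tumour of childhood. The 4 groups were hypoxia with SLC-0111, hypoxia with DMSO, normoxia with SLC-0111 and normoxia with DMSO. Hypoxia was an oxygen partial pressure of 1%, SLC-0111 (also called U-104) is an inhibitor of the carbonic anhydrases CAIX and CAXII and was given at 100 µM, and all cultures were treated for 48 h in a medium with serum. DMSO is the solvent control. Each group had 4 libraries, and the study calls them technical replicates of a single cell line, so every p-value below covers only the spread between such libraries.

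Long noncoding RNAs act as RNA and are not translated into a working protein. MALAT1 gathers in nuclear speckles, bodies rich in splicing factors, and NEAT1 is the scaffold of paraspeckles, which hold RNA-binding proteins such as SFPQ and NONO. The 3′ ends of MALAT1 and of the long NEAT1 transcript are made by RNase P. It releases a tRNA-like RNA and leaves an end without a poly(A) tail. GAS5 and the SNHG genes carry small nucleolar RNAs (snoRNAs) in their introns, and these guide the chemical modification of ribosomal RNA. Their spliced transcripts are loaded on ribosomes and destroyed by nonsense-mediated decay, a pathway that needs translation. MIR210HG is the host of miR-210, a microRNA known to be induced through hypoxia-inducible factors in human cells.

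The sequences that the values below refer to are printed first. MIR210 lies inside MIR210HG on chromosome 11, and no annotated exon of MIR210HG overlaps it, so it is intronic. Its mature arms, from RefSeq (GRCh38.p14), lie on the minus strand at chr11:568112-568133 (3p) and chr11:568150-568171 (5p), and capitals mark the seed, bases 2 to 8.
hsa-miR-210-3p: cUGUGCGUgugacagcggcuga
hsa-miR-210-5p: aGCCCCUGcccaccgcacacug

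MIR210HG and SNHG1 were the members that were higher in hypoxia with both compounds, and their promoters are shown for that reason. Both are RefSeq windows (GRCh38.p14) on the minus strand, from 250 bases before the start to 50 after it, at chr11:568408-568707 and chr11:62855836-62856135. Capitals mark ACGTG and GCGTG, the core letters of hypoxia response elements, on either strand.
MIR210HG promoter: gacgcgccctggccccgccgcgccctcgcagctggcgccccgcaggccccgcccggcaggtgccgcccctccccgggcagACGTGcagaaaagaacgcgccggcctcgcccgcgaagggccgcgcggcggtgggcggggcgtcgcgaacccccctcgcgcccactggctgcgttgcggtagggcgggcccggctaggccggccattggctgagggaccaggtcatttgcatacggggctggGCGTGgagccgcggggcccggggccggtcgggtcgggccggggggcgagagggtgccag
SNHG1 promoter: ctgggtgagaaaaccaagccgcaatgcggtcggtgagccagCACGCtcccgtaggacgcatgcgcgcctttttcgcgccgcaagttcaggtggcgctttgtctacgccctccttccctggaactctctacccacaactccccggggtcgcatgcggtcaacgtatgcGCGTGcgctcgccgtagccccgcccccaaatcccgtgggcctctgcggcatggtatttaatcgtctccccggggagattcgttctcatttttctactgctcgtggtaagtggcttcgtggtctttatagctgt

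The MIR210HG window held 1 ACGTG, at position -170 from the start, and 1 GCGTG, at -9, both on the strand of the gene. SNHG1 held 2 GCGTG and 0 ACGTG. Among the members with a promoter entry, SNHG8 also held 1 of each, SNHG12 held 3 GCGTG, the 2 windows of MALAT1 held 2 and 1 GCGTG, and the GAS5 window held 0 of either. Of 35116 promoters in the table, 21.4% held ACGTG and 36.5% held GCGTG on either strand, so a match by itself is common. The E-box CACGTG (7.26% of all promoters, and a motif that contains ACGTG) and TGATGNAA, the letters of an ATF4 site (3.62%), had 0 matches in every member promoter searched. NEAT1 and SNHG15 have no entry there.

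The tRNA-like regions of the nuclear RNAs are shown because they mark the processed 3′ ends of MALAT1 and of the long NEAT1 transcript. Both carry the Rfam name RF01684 in GENCODE 29 (GRCh38, plus strand), at chr11:65506117-65506173 inside MALAT1 and at chr11:65445541-65445598, next to the annotated end of NEAT1. Capitals mark the longest stretch that both share, 9 bases.
mascRNA region of MALAT1: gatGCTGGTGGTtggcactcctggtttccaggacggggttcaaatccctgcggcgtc
menRNA region of NEAT1: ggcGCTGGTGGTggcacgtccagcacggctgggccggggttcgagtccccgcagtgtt

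A snoRNA of each main class stands for what the introns of the hosts hold. SNORD27, a box C/D snoRNA in SNHG1, lies at chr11:62855012-62855083 (minus strand), with box C and box D in capitals. SNORA24, a box H/ACA snoRNA in SNHG8, lies at chr4:118279190-118279320 (plus strand), with its last ACA in capitals (both GENCODE 29, GRCh38).
SNORD27: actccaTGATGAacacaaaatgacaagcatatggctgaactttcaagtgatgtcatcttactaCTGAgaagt
SNORA24: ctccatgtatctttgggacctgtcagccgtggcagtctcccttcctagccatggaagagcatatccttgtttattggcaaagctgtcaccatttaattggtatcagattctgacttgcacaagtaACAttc

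Hypoxia DMSO replicate 3 was the shallowest library, with a total of 3.30 M counts, and the other 15 held 18.28 M to 49.25 M. A count of 0 allowed up to 3 counts, which was 0.0609 to 0.910 CPM (counts-per-million) over these depths, for counting error only. Of the hepatoblastoma and hepatocyte markers, AFP, GPC3, TTR, APOA1, ALB, HNF4A, KRT8 and KRT18 were detected in every library, while DLK1 had 8 counts in all libraries together. The leukocyte markers summed to at most 0.298 CPM in any library. PECAM1, an endothelial marker, averaged 55.4 CPM and PDGFRB, a fibroblast marker, 34.5 CPM over all libraries, while CDH5, VWF, PDGFRA and LUM averaged 0.620, 0.147, 1.82 and 0.0161 CPM. The 3 fibroblast markers summed to 38.1 to 43.7 CPM in hypoxia SLC-0111, 55.6 to 58.8 in hypoxia DMSO, 17.2 to 18.3 in normoxia SLC-0111 and 28.6 to 31.5 in normoxia DMSO, nearly all of it PDGFRB, and the part of this in the results below was not tested. In bulk RNA, fewer cells of a type and less RNA per cell cannot be told apart. One library of hypoxia DMSO and one of normoxia SLC-0111 have column names that fix the group and not the replicate, and they are called unnumbered.

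The protein-coding share of all counts was 90.2% ± 1.56 in hypoxia SLC-0111, 91.5% ± 1.18 in hypoxia DMSO, 86.5% ± 4.12 in normoxia SLC-0111 and 89.8% ± 0.816 in normoxia DMSO (SD, n = 4 each). Normoxia SLC-0111 replicate 4 stood lowest, at 80.6%, and its mitochondrial ribosomal RNA took 12.6% of counts, the highest of the 16 libraries. That mitochondrial share averaged 5.71% in hypoxia SLC-0111, 4.88% in hypoxia DMSO, 8.80% in normoxia SLC-0111 and 6.19% in normoxia DMSO. With the genes of the mitochondrial genome left out, the protein-coding shares were 95.5%, 96.1%, 94.6% and 95.6% in the same order of groups. The 8 members together took 15.5% of all long noncoding counts in hypoxia SLC-0111, 18.6% in hypoxia DMSO, 13.9% in normoxia SLC-0111 and 12.2% in normoxia DMSO. MALAT1 had 1844831 counts over all libraries and ranked 2 among the long noncoding genes and 9 among all genes. NEAT1, with 333741 counts, ranked 5 among the long noncoding genes.

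Per kilobase of merged exons, MALAT1 had the highest level of the members in each group, at 504 ± 78.5 CPM per kb in hypoxia SLC-0111, 484 ± 120 in hypoxia DMSO, 526 ± 160 in normoxia SLC-0111 and 360 ± 41.5 in normoxia DMSO (SD, n = 4 each). SNHG8 came next in 3 of the groups, at 49.6 CPM per kb in hypoxia SLC-0111, 65.4 in normoxia SLC-0111 and 49.4 in normoxia DMSO. The merged exons take in all annotated transcripts, with 923 bases for SNHG8, 3631 for GAS5 and 22767 for NEAT1. A transcript shorter than this length is read too low, so the order between genes depends on the annotation. In hypoxia DMSO, NEAT1 averaged 44.0 ± 14.9 CPM per kb and SNHG8 40.6 ± 2.70, and their ranges overlapped. NEAT1 and GAS5 overlapped in both SLC-0111 groups, at 33.8 and 30.0 CPM per kb in hypoxia and at 34.3 and 41.1 in normoxia. MIR210HG stood last in normoxia, at 0.296 CPM per kb with SLC-0111 and 0.440 with DMSO. In hypoxia it stood above SNHG15 and SNHG12, at 4.15 CPM per kb with SLC-0111 and 5.80 with DMSO, and in the SLC-0111 group its range overlapped that of SNHG15.

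**Figure D1:**
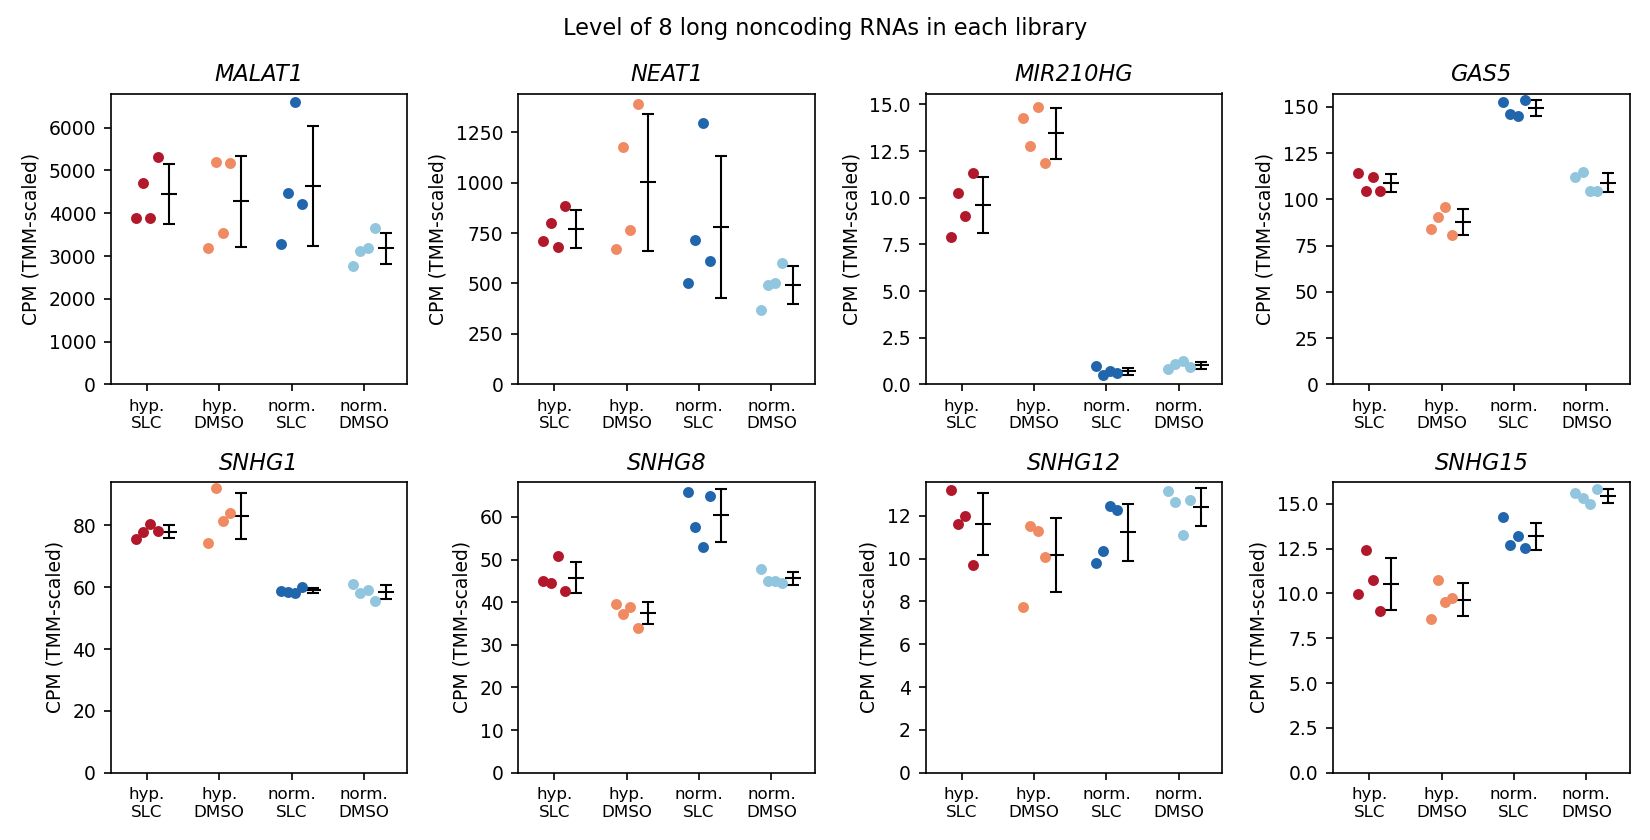
Level of each of the 8 long noncoding RNAs in CPM (scaled to the TMM-adjusted library size), 1 point per library, with the mean and SD of the 4 libraries of a group as a bar to the right of its points. Each panel has its own vertical axis from 0. MIR210HG lies between 7.89 and 14.9 CPM in hypoxia and between 0.503 and 1.25 CPM in normoxia, while the points of MALAT1 and NEAT1 spread widely within the groups.

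MIR210HG (ENSG00000247095, chr11:565660-568457, minus strand) had the largest change of the members. It had 7.89, 10.3, 9.00 and 11.3 CPM in hypoxia SLC-0111, against 0.964, 0.503, 0.685 and 0.598 CPM in normoxia SLC-0111. With DMSO it had 14.3, 12.8, 14.9 and 11.9 CPM in hypoxia, against 0.809, 1.11, 1.25 and 0.916 CPM in normoxia. Every hypoxia library lay above every normoxia library. The fitted change in hypoxia was 14.3-fold with SLC-0111 (log2 3.84 ± 0.16 SE) and 12.8-fold with DMSO (log2 3.68 ± 0.15 SE), with adjusted p of 4.46e-15 and 1.52e-15 in edgeR's quasi-likelihood test over all genes. Within hypoxia, MIR210HG fell with SLC-0111, to 9.62 ± 1.50 CPM, against 13.5 ± 1.36 CPM with DMSO (SD, n = 4 each), and these groups did not overlap. That change was -0.44 ± 0.12 (log2, SE) with an edgeR adjusted p of 0.00957. In normoxia it averaged 0.687 CPM with SLC-0111 and 1.02 CPM with DMSO, the groups overlapped, and the change of -0.60 ± 0.23 did not pass (edgeR adjusted p = 0.0640); without normoxia SLC-0111 replicate 1 it was -0.77 and passed (0.0269). These normoxia levels rest on 74 counts with SLC-0111 and 117 counts with DMSO over 4 libraries each. The miR-210 precursor itself has a row in the table, with 32 counts in hypoxia SLC-0111, 48 in hypoxia DMSO, 6 in normoxia SLC-0111 and 4 in normoxia DMSO. These few reads do not measure the mature microRNA.

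The genes flanking MIR210HG had smaller fitted changes with oxygen. PHRF1, on its higher-coordinate side, changed by 0.45 ± 0.05 (log2, SE) in hypoxia with SLC-0111 and by 0.19 ± 0.05 with DMSO, with edgeR adjusted p of 8.22e-08 and 0.00292. RASSF7, on the other side, changed by 0.27 ± 0.09 with SLC-0111 (edgeR adjusted p = 0.0104), and its change with DMSO of 0.08 ± 0.09 did not pass (0.503). Of 12 well-known hypoxia genes, 11 were tested and all 11 rose in hypoxia with either compound, with median log2 changes of 3.33 with SLC-0111 and 3.50 with DMSO, against -0.03 and -0.00 (to 2 decimals) over all genes tested. Of all genes, 23.9% were called higher in hypoxia with SLC-0111 and 25% with DMSO. With SLC-0111 against DMSO in hypoxia, 4 of the 11 fell and 1 rose, where 16.3% of all genes were called. CA9, the gene of the enzyme CAIX, fell to 26.5 ± 2.89 CPM with SLC-0111, against 56.2 ± 7.54 CPM with DMSO (log2 -1.08 ± 0.10 SE, edgeR adjusted p = 2.09e-07). PDK1, a kinase that restrains pyruvate oxidation, fell by 0.38 ± 0.10, BNIP3, a mitophagy receptor, by 0.33 ± 0.08, and P4HA1, a collagen prolyl hydroxylase, rose by 0.35 ± 0.06 (log2, SE).

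NEAT1 (ENSG00000245532, chr11:65422774-65445540, plus strand) was higher in hypoxia with DMSO. It had 673, 1176, 763 and 1391 CPM in hypoxia DMSO (replicates 1, 2 and 3 and the unnumbered library), against 370, 493, 503 and 600 CPM in normoxia DMSO. These groups did not overlap, and replicate 2 and the unnumbered library were the high ones in hypoxia. The fitted change was 1.03 ± 0.30 (log2, SE; 2.04-fold), with an edgeR adjusted p of 0.0128, which ran from 0.00302 to 0.0456 when a library was left out. With SLC-0111, NEAT1 had 711, 800, 682 and 887 CPM in hypoxia, against 500, 717, 1294 and 612 CPM in normoxia (replicates 1, 3 and 4 and the unnumbered library). Here the groups overlapped, since normoxia SLC-0111 replicate 4 stood above all 4 hypoxia libraries, and the change was -0.02 ± 0.30 (edgeR adjusted p = 0.964). SLC-0111 against DMSO gave 0.67 ± 0.30 in normoxia and -0.38 ± 0.30 in hypoxia, with edgeR adjusted p of 0.136 and 0.460. Without normoxia SLC-0111 replicate 4 the first was 0.31, and without the unnumbered hypoxia DMSO library the second was -0.18. The difference between those compound effects, hypoxia minus normoxia, was -1.05 ± 0.43 and did not pass either (edgeR adjusted p = 0.176), and it was -0.69 without normoxia SLC-0111 replicate 4. The short and long NEAT1 transcripts share their first part and cannot be told apart in counts per gene.

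MALAT1 (ENSG00000251562, chr11:65497688-65506516, plus strand) passed the test in none of the contrasts. It had 3883, 4711, 3897 and 5312 CPM in hypoxia SLC-0111, and 3191, 5188, 3539 and 5185 CPM in hypoxia DMSO. In normoxia it had 3271, 4475, 6608 and 4220 CPM with SLC-0111, and 2762, 3117, 3181 and 3654 CPM with DMSO. The groups overlapped in each of the 4 pairwise contrasts, and the highest library of all was again normoxia SLC-0111 replicate 4. The largest of its fitted changes was 0.55 ± 0.22 (log2, SE) for SLC-0111 in normoxia, with an edgeR adjusted p of 0.0938. Without normoxia SLC-0111 replicate 1 that change was 0.68 and passed (edgeR adjusted p = 0.0386), and with normoxia SLC-0111 replicate 4 left out it came to 0.33 (0.294). Hypoxia against normoxia gave 0.43 ± 0.22 with DMSO and -0.06 ± 0.22 with SLC-0111, with edgeR adjusted p of 0.125 and 0.842.

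MALAT1 and NEAT1 moved with the make-up of the libraries. In each of the 4 groups, the library with the most MALAT1 was the one with the lowest protein-coding share and the highest mitochondrial ribosomal RNA share, and for NEAT1 this held in 3 of 4 groups. In hypoxia DMSO the match for MALAT1 was narrow, since replicate 2 (5188 CPM at a share of 89.8%) and the unnumbered library (5185 CPM at 91.4%) had nearly the same level. At the other end, the library with the least MALAT1 had the highest protein-coding share in 3 of 4 groups, and that with the least NEAT1 in 2 of 4. For NEAT1 the exception at the top was hypoxia DMSO, where the unnumbered library had the most NEAT1 at a protein-coding share of 91.4%. Each share was added to the model in turn. Both shares were read from the treated libraries themselves, and their means differed between the groups. For example, the protein-coding share averaged 91.5% for the hypoxia DMSO libraries, against 86.5% for those of normoxia SLC-0111. The covariate fits therefore cannot separate treatment from library make-up, and their values are not effects corrected for make-up. Whether make-up moved these RNAs was not tested. With the protein-coding share as covariate, SLC-0111 in normoxia gave 0.11 for MALAT1 and 0.07 for NEAT1 (log2), and hypoxia with DMSO gave 0.61 and 1.27, with edgeR adjusted p of 0.000688 and 6.98e-05. It also moved hypoxia with SLC-0111 to 0.41 for MALAT1 and 0.64 for NEAT1, past the threshold (edgeR adjusted p = 0.0244 and 0.0231), and SLC-0111 in hypoxia to -0.56 for NEAT1 (0.0389). With the covariate, NEAT1 kept its call in hypoxia with DMSO, MALAT1 gained calls in both oxygen contrasts, and neither RNA passed for SLC-0111 in normoxia (edgeR adjusted p = 0.617 for MALAT1 and 0.860 for NEAT1). With the mitochondrial share in its place, hypoxia gave 0.51 for MALAT1 and 0.77 for NEAT1 with SLC-0111 (edgeR adjusted p = 0.0375 and 0.0334), and 0.65 and 1.33 with DMSO (0.00213 and 0.000191). There NEAT1 did not pass for SLC-0111 in hypoxia, at -0.57 (edgeR adjusted p = 0.0687).

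**Figure D2:**
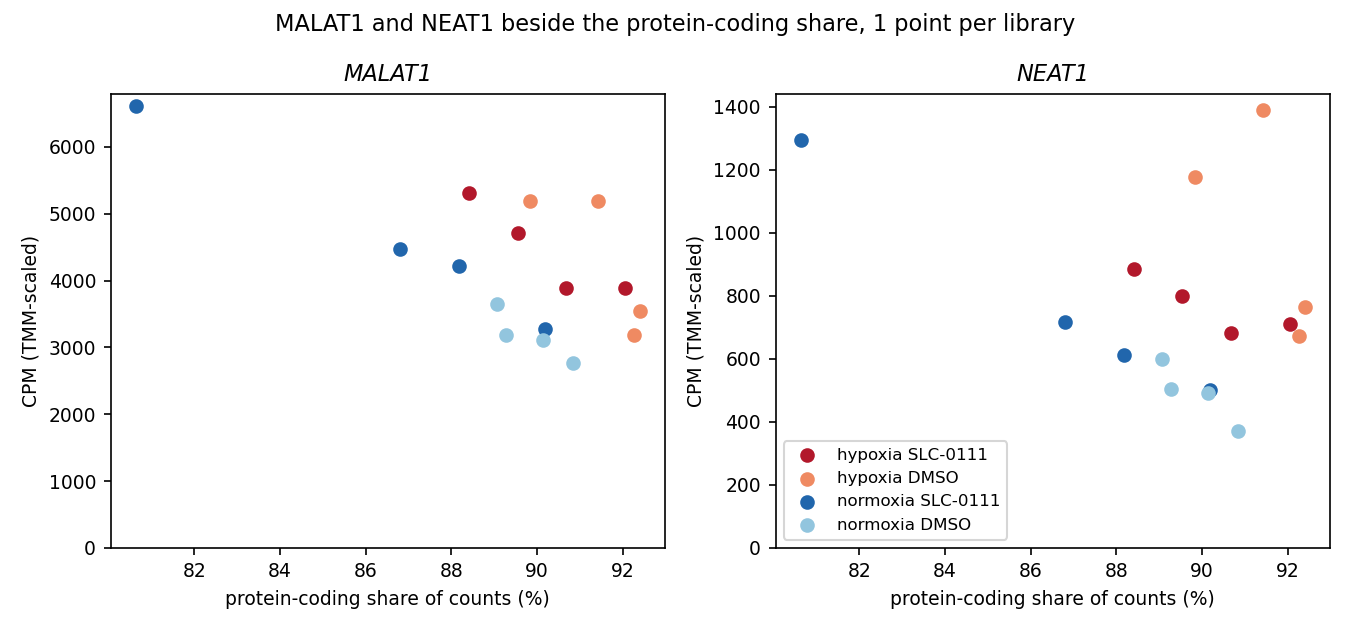
MALAT1 (left) and NEAT1 (right) in CPM against the percentage of counts in protein-coding genes, 1 point per library, coloured by group; the horizontal axis does not start at 0. Normoxia SLC-0111 replicate 4 lies at the far left at 80.6%, with 6608 CPM of MALAT1 and 1294 CPM of NEAT1.

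The ratio of both RNAs within a library does not depend on scaling. NEAT1 counts were 18.3, 17.0, 17.5 and 16.7% of MALAT1 counts in hypoxia SLC-0111, and 21.1, 22.7, 21.6 and 26.8% in hypoxia DMSO. In normoxia they were 15.3, 16.0, 19.6 and 14.5% with SLC-0111, and 13.4, 15.8, 15.8 and 16.4% with DMSO. All 4 hypoxia DMSO libraries lay above the other 12. The group means were 17.4% ± 0.711, 23.0% ± 2.61, 16.4% ± 2.24 and 15.4% ± 1.35 (SD, n = 4 each), in the same order of groups. No test was made of this ratio, which was chosen after the levels had been seen.

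Of 20 proteins of paraspeckles and nuclear speckles or of MALAT1 processing, all were tested. With SLC-0111, 11 fell and 0 rose in normoxia, and 7 fell and 1 rose in hypoxia, where 23.6% and 16.3% of all genes were called. The 8 calls in hypoxia came to 4 without hypoxia DMSO replicate 1 and to 5 without hypoxia SLC-0111 replicate 1, 2 or 3. SFPQ, a core paraspeckle protein, fell to 418 ± 10.7 CPM with SLC-0111 in normoxia, against 550 ± 9.41 CPM with DMSO (log2 -0.40 ± 0.05 SE, edgeR adjusted p = 2.64e-06). Hypoxia against normoxia gave 4 higher and 5 lower with SLC-0111, and 1 higher and 7 lower with DMSO. Of all genes, 48.2% and 49.8% were called in these contrasts. RBM14, a paraspeckle protein, fell in hypoxia by 0.43 ± 0.07 with SLC-0111 and by 0.65 ± 0.07 with DMSO, and ELAC2, the tRNA 3′ end nuclease, fell by 0.50 ± 0.06 with DMSO (log2, SE). The medians of the list were -0.18 for SLC-0111 in normoxia and -0.08 in hypoxia, against 0.02 and -0.01 over all genes tested.

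Turning to the snoRNA hosts, GAS5 (ENSG00000234741, chr1:173863900-173868882, minus strand) was higher with SLC-0111 and lower in hypoxia. It had 114, 105, 112 and 105 CPM in hypoxia SLC-0111, against 84.2, 90.4, 96.1 and 80.5 CPM in hypoxia DMSO. In normoxia it had 152, 146, 145 and 153 CPM with SLC-0111, against 112, 115, 104 and 105 CPM with DMSO. The compound groups did not overlap at either oxygen level, nor did the oxygen groups with either compound. SLC-0111 raised GAS5 by 0.32 ± 0.05 in hypoxia and by 0.46 ± 0.05 in normoxia (log2, SE), with edgeR adjusted p of 0.000183 and 8.78e-07. Hypoxia gave -0.46 ± 0.05 with SLC-0111 and -0.32 ± 0.05 with DMSO, with edgeR adjusted p of 1.57e-07 and 2.54e-05. The difference between the compound effects was -0.13 ± 0.08 and did not pass (edgeR adjusted p = 0.317).

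GAS5 overlaps ZBTB37 and GAS5-AS1 on the other strand, and the strand setting of the counting is not given in the sources used here, so reads of such partners cannot be told apart from its own. ZBTB37 rose by 0.25 ± 0.08 (log2, SE) with SLC-0111 in normoxia (edgeR adjusted p = 0.0201), and its change of 0.11 ± 0.08 in hypoxia did not pass (0.422). Its changes with oxygen, -0.09 ± 0.08 with SLC-0111 and 0.05 ± 0.08 with DMSO, did not pass either (edgeR adjusted p = 0.356 and 0.619).

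SNHG8 (ENSG00000269893, chr4:118278709-118279823, plus strand), the host of SNORA24, followed the same directions. It had 45.1, 44.6, 50.9 and 42.6 CPM in hypoxia SLC-0111, against 39.6, 37.2, 39.0 and 34.0 CPM in hypoxia DMSO. In normoxia it had 65.9, 57.5, 52.9 and 65.0 CPM with SLC-0111, against 47.8, 45.0, 44.9 and 44.6 CPM with DMSO. None of these pairs of groups overlapped, nor did the oxygen groups with either compound. SNHG8 rose with SLC-0111 by 0.30 ± 0.07 in hypoxia and by 0.40 ± 0.07 in normoxia (log2, SE), with edgeR adjusted p of 0.00552 and 0.000110. In hypoxia it fell by 0.40 ± 0.07 with SLC-0111 and by 0.29 ± 0.07 with DMSO, with edgeR adjusted p of 3.54e-05 and 0.00167. Pearson's r between log2 CPM of GAS5 and of SNHG8 was 0.95 over the 16 libraries, which share the 4 conditions.

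SNHG1 (ENSG00000255717, chr11:62851988-62855914, minus strand), which carries several box C/D snoRNAs, moved the other way with oxygen. It had 75.5, 77.9, 80.6 and 78.2 CPM in hypoxia SLC-0111, against 58.9, 58.6, 58.2 and 60.2 CPM in normoxia SLC-0111. With DMSO it had 74.4, 92.2, 81.5 and 84.0 CPM in hypoxia, against 61.1, 58.2, 59.0 and 55.6 CPM in normoxia. Every hypoxia library was above every normoxia library. The rises were 0.40 ± 0.05 with SLC-0111 and 0.51 ± 0.06 with DMSO (log2, SE), with edgeR adjusted p of 1.55e-06 and 5.21e-08. SLC-0111 against DMSO gave -0.09 in hypoxia and 0.01 in normoxia, and neither passed (edgeR adjusted p = 0.291 and 0.897). SLC3A2, a subunit of amino acid transporters whose gene starts 188 bases from SNHG1 on the other strand, rose in hypoxia as well, by 0.90 ± 0.12 with SLC-0111 and 0.68 ± 0.12 with DMSO. SLC3A2 also passed for SLC-0111 in hypoxia, at 0.45 ± 0.12 (edgeR adjusted p = 0.0204).

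The ratio of GAS5 to SNHG1 counts, which no scaling changes, was 1.51, 1.34, 1.39 and 1.34 in hypoxia SLC-0111 and 1.13, 0.981, 1.18 and 0.959 in hypoxia DMSO. In normoxia it was 2.59, 2.49, 2.49 and 2.55 with SLC-0111 and 1.83, 1.97, 1.77 and 1.88 with DMSO. The 4 groups were thus fully separated on this ratio, with means of 1.40 ± 0.0808, 1.06 ± 0.109, 2.53 ± 0.0458 and 1.86 ± 0.0843 (SD, n = 4 each). This ratio, too, was chosen with the levels known and was not tested.

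**Figure D3:**
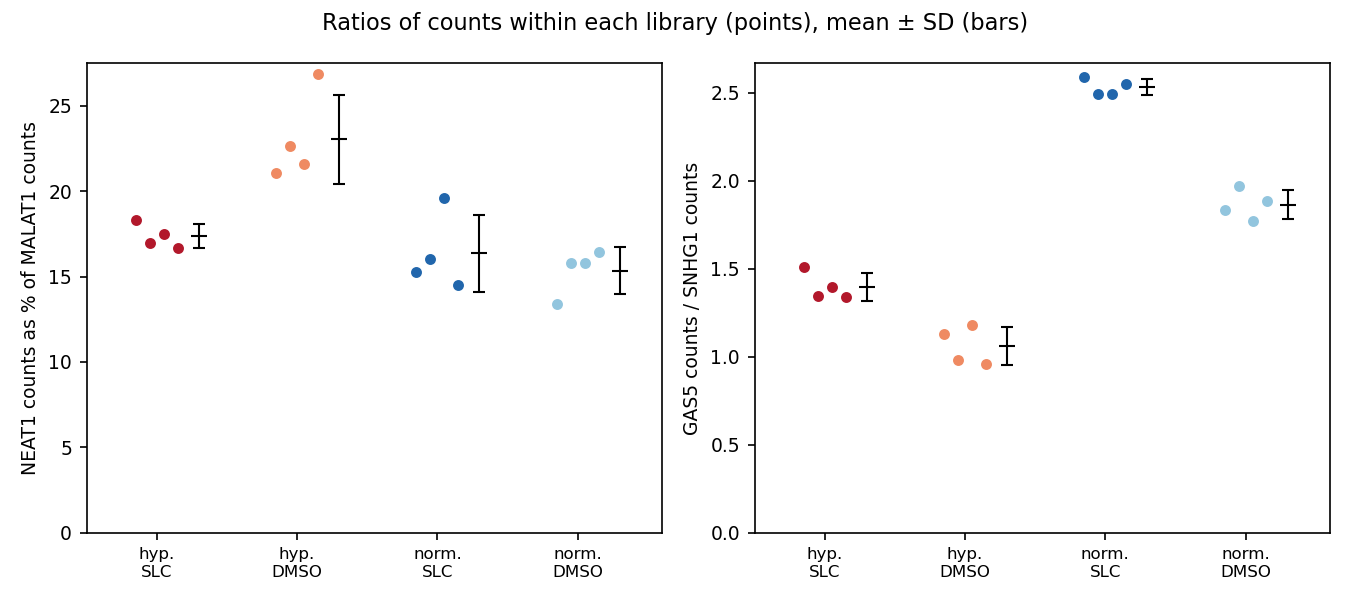
Ratios of raw counts within each library by group: NEAT1 counts as a percentage of MALAT1 counts (left) and GAS5 counts over SNHG1 counts (right), with the mean and SD of 4 libraries to the right of the points. The hypoxia DMSO libraries lie between 21.1 and 26.8% on the left, and the 4 groups do not overlap on the right.

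SNHG15 (ENSG00000232956, chr7:44983023-44986961, minus strand), the host of SNORA9, was lower in hypoxia. It had 9.95, 12.4, 10.8 and 9.00 CPM in hypoxia SLC-0111, against 14.3, 12.7, 13.2 and 12.5 CPM in normoxia SLC-0111. With DMSO it had 8.59, 10.8, 9.52 and 9.76 CPM in hypoxia, against 15.6, 15.3, 15.0 and 15.8 CPM in normoxia. The oxygen groups did not overlap with either compound. SNHG15 fell in hypoxia by 0.33 ± 0.09 with SLC-0111 and by 0.67 ± 0.09 with DMSO (log2, SE), with edgeR adjusted p of 0.00361 and 2.36e-06. SLC-0111 against DMSO gave 0.11 in hypoxia (edgeR adjusted p = 0.492). In normoxia it gave -0.23 ± 0.09, and although these groups did not overlap, the edgeR adjusted p of 0.0544 missed the threshold. That last p lay close to 0.05 and passed under several other settings, with a range of 0.00636 to 0.182 over all of them.

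SNHG12 (ENSG00000197989, chr1:28578538-28583132, minus strand), the host of SNORD99 and other snoRNAs, was the member with the least secure call. It had 13.2, 11.6, 12.0 and 9.73 CPM in hypoxia SLC-0111 and 7.74, 11.5, 11.3 and 10.1 CPM in hypoxia DMSO. In normoxia it had 9.82, 10.4, 12.5 and 12.3 CPM with SLC-0111 and 13.2, 12.6, 11.1 and 12.7 CPM with DMSO. The groups overlapped in each of the 4 pairwise contrasts. The change in hypoxia with DMSO was -0.32 ± 0.12 (log2, SE) with an edgeR adjusted p of 0.0283. It rested on hypoxia DMSO replicate 1, without which it was -0.17 (edgeR adjusted p = 0.202). The call was also lost without the unnumbered hypoxia DMSO library or without normoxia DMSO replicate 1, 2 or 4, at -0.29 to -0.31 and edgeR adjusted p of 0.0571 to 0.0650. SNHG12 overlaps the end of TRNAU1AP on the other strand. TRNAU1AP rose in hypoxia by 0.33 ± 0.07 with SLC-0111 and 0.29 ± 0.07 with DMSO, and fell with SLC-0111 by 0.29 ± 0.07 in hypoxia and 0.33 ± 0.07 in normoxia (log2, SE).

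Counted over the 8 members by edgeR, SLC-0111 raised 2 (GAS5 and SNHG8) and lowered 0 in normoxia, where 23.6% of the 18385 genes tested were called, 12.4% higher and 11.2% lower. In that contrast DESeq2 also called MIR210HG lower (-0.61, adjusted p = 0.0474) and limma-voom SNHG15 lower (-0.23, adjusted p = 0.0463). In hypoxia it raised GAS5 and SNHG8 and lowered MIR210HG, where 16.3% of genes were called, 9.14% higher and 7.11% lower. Hypoxia raised 2 members and lowered 3 with SLC-0111, where 48.2% of genes were called, 23.9% higher and 24.3% lower. With DMSO it raised 3 and lowered 4, where 49.8% of genes were called, 25% higher and 24.8% lower. The groups did not overlap for 3 members with SLC-0111 in hypoxia (17% of all genes) and 3 in normoxia (29.6%). In hypoxia against normoxia this held for 5 members with SLC-0111 (43.6% of all genes) and 6 with DMSO (42.6%). For the difference between the compound effects, edgeR, DESeq2 and limma-voom each called 0 members. There 5.99% of all genes were called by edgeR, 2.87% higher and 3.13% lower, and NEAT1, SNHG12 and SNHG15 had an unadjusted p under 0.05. The contrasts share libraries, so these counts are not independent of each other. With library size alone as the scaling, the calls over all genes split into 961 higher and 1940 lower for SLC-0111 in hypoxia and 1396 and 3134 in normoxia, against 1681 and 1308, and 2271 and 2068, with TMM.

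**Figure D4:**
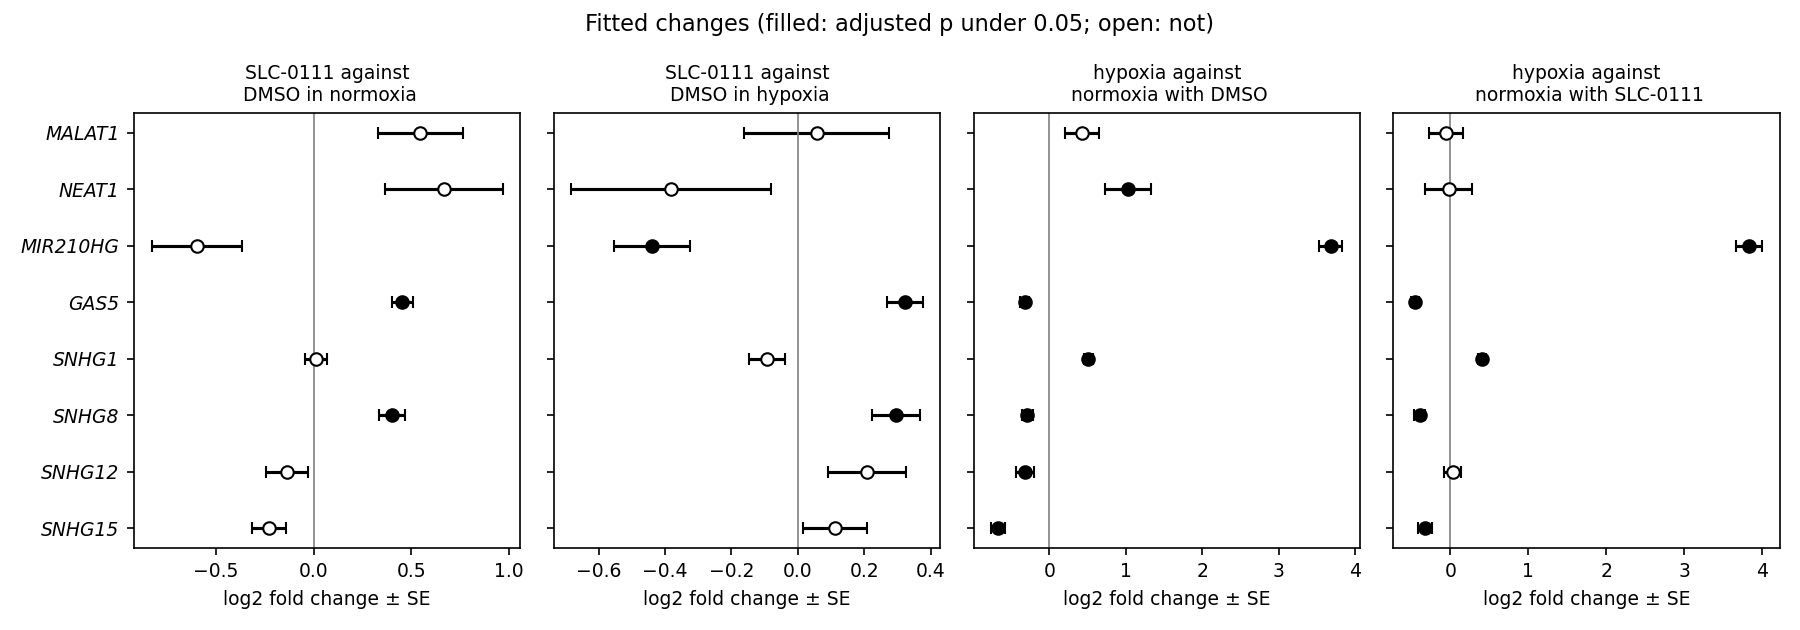
Fitted log2 fold change ± SE (horizontal axis) of each member in the 4 pairwise contrasts, the first-named condition over the other; filled points have an edgeR adjusted p under 0.05, and the horizontal scales differ between panels. MIR210HG stands at 3.68 and 3.84 in the oxygen contrasts, and GAS5 and SNHG8 are right of 0 in both SLC-0111 contrasts and left of 0 in both oxygen contrasts.

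Other noncoding snoRNA hosts were read for comparison: 25 were listed and 22 were tested. Hypoxia raised 0 and lowered 10 of them with SLC-0111, and raised 2 and lowered 11 with DMSO. Over all genes, 48.2% and 49.8% were called there, 23.9% and 25% higher and 24.3% and 24.8% lower. SNHG3 fell to 15.8 ± 1.78 CPM in hypoxia SLC-0111, against 31.4 ± 5.08 CPM in normoxia SLC-0111, and to 19.3 ± 3.75 CPM in hypoxia DMSO, against 35.0 ± 2.73 CPM in normoxia DMSO. SNHG4 fell by 0.88 ± 0.13 with SLC-0111 and by 1.11 ± 0.14 with DMSO (log2, SE). The medians were -0.23 with SLC-0111 and -0.21 with DMSO, against -0.03 and -0.00 over all genes tested. SNHG7 and EPB41L4A-AS1 were the 2 that rose in hypoxia with DMSO, by 0.38 ± 0.06 and 0.36 ± 0.10, with edgeR adjusted p of 2.19e-05 and 0.00438.

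With SLC-0111, 2 of the 22 rose and 1 fell in hypoxia, and 5 rose and 2 fell in normoxia. The shares of all genes called there were 16.3% and 23.6%. The 3 calls in hypoxia came to 0 without hypoxia SLC-0111 replicate 1 or 3, to 1 without hypoxia SLC-0111 replicate 2 or hypoxia DMSO replicate 1, replicate 2 or the unnumbered library, and to 5 without hypoxia SLC-0111 replicate 4. The 7 in normoxia came to 4 without normoxia SLC-0111 replicate 3. SNHG29 rose at both oxygen levels, to 319 ± 17.9 CPM, against 280 ± 14.3 CPM with DMSO, in hypoxia and to 375 ± 31.4 CPM, against 291 ± 13.0 CPM with DMSO, in normoxia (edgeR adjusted p = 0.0281 and 5.67e-05). SNHG7 rose by 0.37 ± 0.06 and ZFAS1 by 0.31 ± 0.06 in normoxia (log2, SE), with edgeR adjusted p of 0.000103 and 0.000487. SNHG9 fell to 0.573 ± 0.122 CPM with SLC-0111 in normoxia, against 1.06 ± 0.255 CPM with DMSO, a log2 change of -0.88 ± 0.29 SE (edgeR adjusted p = 0.0285).

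**Figure D5:**
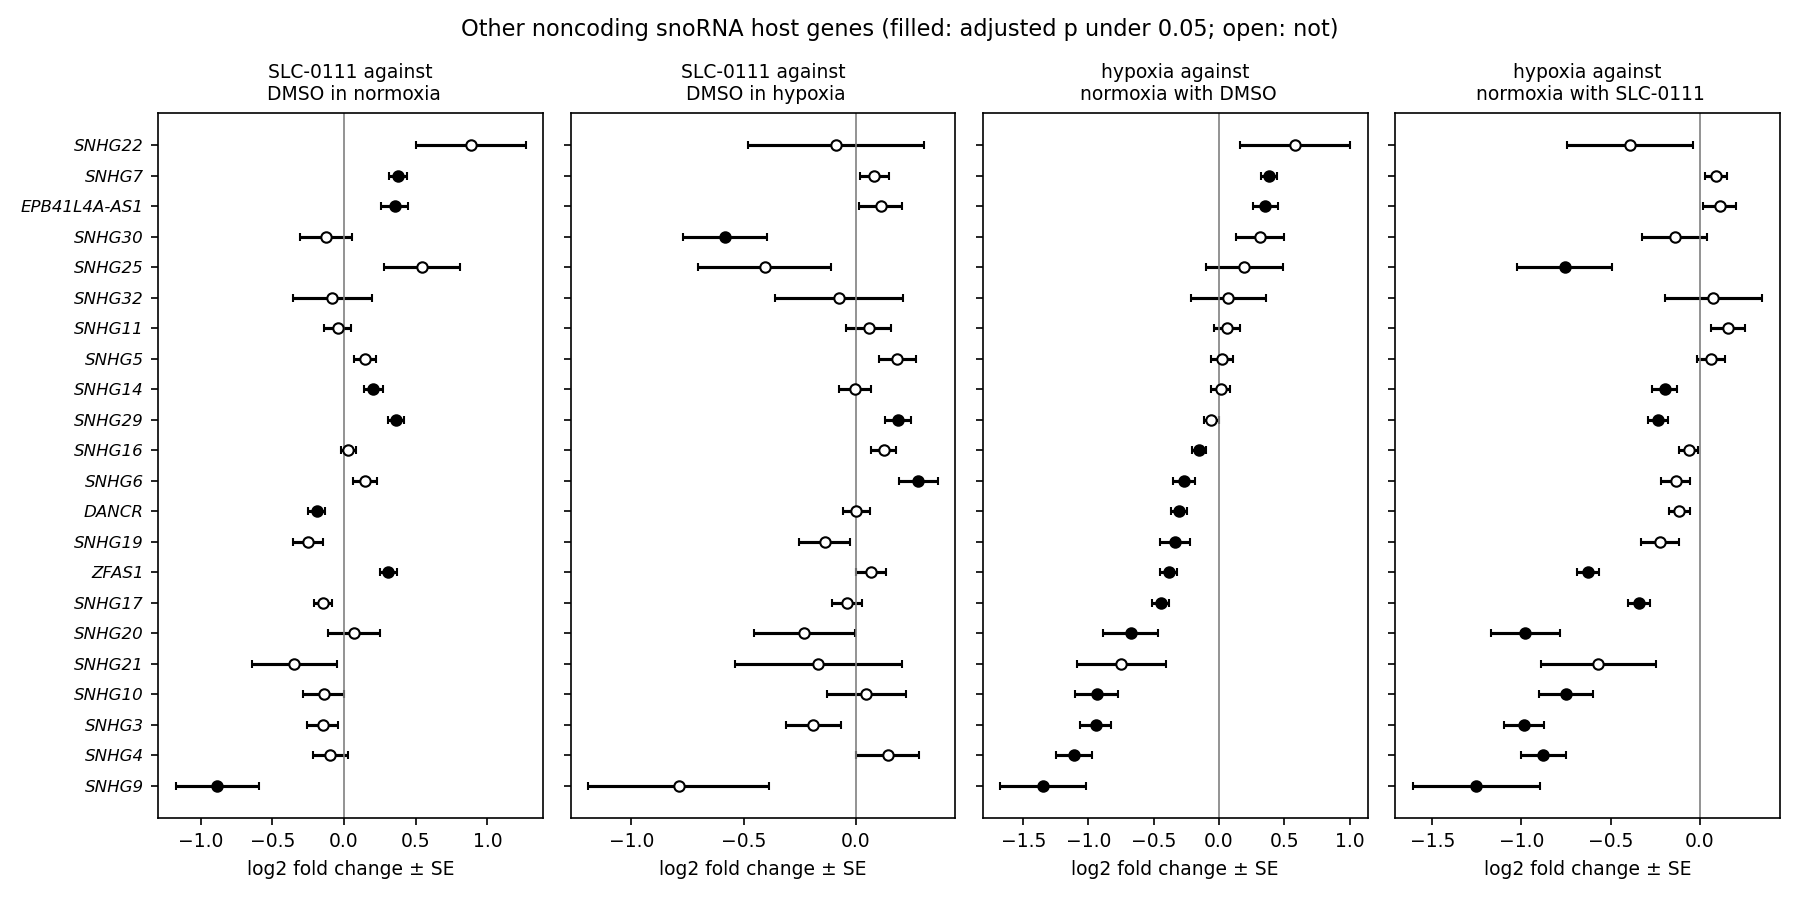
Fitted log2 fold change ± SE (horizontal axis) of the 22 tested noncoding snoRNA hosts that are not members, ordered by their change in hypoxia with DMSO, in the 4 pairwise contrasts; filled points have an edgeR adjusted p under 0.05 and the horizontal scales differ. In both oxygen contrasts most filled points lie left of 0, 10 with SLC-0111 and 11 with DMSO.

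Protein-coding hosts and the proteins that bind snoRNAs were counted as well. The 36 protein-coding hosts were mostly genes of ribosomal proteins and translation factors. Of these, hypoxia raised 0 and lowered 17 with SLC-0111, and raised 1 and lowered 18 with DMSO. Over all genes 48.2% and 49.8% were called, a like share for both directions together. By direction, 23.9% and 25% of all genes were called higher, and 24.3% and 24.8% lower. The 17 calls with SLC-0111 came to 10 without hypoxia SLC-0111 replicate 2, and to 31 with the protein-coding share as covariate, which also gave 31 with DMSO. HSPA8, a chaperone gene that hosts snoRNAs, fell by 0.83 ± 0.06 with SLC-0111 and by 0.75 ± 0.06 with DMSO (log2, SE). SLC-0111 raised 4 and lowered 2 in hypoxia, and raised 5 and lowered 4 in normoxia, where 16.3% and 23.6% of all genes were called. The 6 calls in hypoxia came to 3 without hypoxia SLC-0111 replicate 2 or 3. EIF4A2, a translation helicase, rose by 0.33 ± 0.09 in hypoxia and 0.40 ± 0.09 in normoxia, with edgeR adjusted p of 0.0210 and 0.00391. EIF4A1, RPL17 and PPAN, also called in some contrasts, are overlapped by read-through genes on the same strand in the annotation and averaged 4.24, 4.50 and 2.02 CPM, so their values are uncertain.

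Of 16 snoRNP proteins and assembly factors, SLC-0111 lowered 1 in hypoxia and 10 in normoxia and raised 0. There 16.3% and 23.6% of all genes were called, 7.11% and 11.2% lower. The single call in hypoxia came to 3 without hypoxia DMSO replicate 2, and to 2 without the unnumbered hypoxia DMSO library or normoxia SLC-0111 replicate 4. Hypoxia lowered 8 and raised 2 with SLC-0111, and lowered 12 and raised 3 with DMSO. For all genes the shares called were 48.2% and 49.8%, with 24.3% and 24.8% lower. DKC1, the pseudouridine synthase of H/ACA particles and itself a snoRNA host, fell in hypoxia by 0.49 ± 0.06 with SLC-0111 and by 0.76 ± 0.06 with DMSO (log2, SE). NOP56, a core protein of C/D particles, fell by 0.55 ± 0.08 with SLC-0111 and by 0.65 ± 0.09 with DMSO. FBL, the methyltransferase of C/D particles, fell with SLC-0111 in hypoxia by 0.35 ± 0.07 (edgeR adjusted p = 0.00112). PIH1D1, an assembly factor, rose in hypoxia by 0.71 ± 0.05 with SLC-0111 and by 0.69 ± 0.06 with DMSO.

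Of 15 factors of nonsense-mediated decay, SLC-0111 lowered 3 and raised 1 in hypoxia, and lowered 8 and raised 1 in normoxia, where 16.3% and 23.6% of all genes were called. The 4 calls in hypoxia came to 0 without hypoxia DMSO replicate 1 and to 2 without hypoxia SLC-0111 replicate 1 or 3. The 9 in normoxia came to 5 without normoxia SLC-0111 replicate 3 or normoxia DMSO replicate 1. UPF1, the helicase of the pathway, fell to 208 ± 13.6 CPM with SLC-0111 in normoxia, against 246 ± 3.67 CPM with DMSO (log2 -0.24 ± 0.05 SE, edgeR adjusted p = 0.000674). UPF3B fell by 0.42 ± 0.08 and EIF4A3, of the exon junction complex, by 0.30 ± 0.06 in normoxia (log2, SE). Hypoxia raised 5 and lowered 2 with SLC-0111, and raised 2 and lowered 5 with DMSO, where 48.2% and 49.8% of all genes were called. The 7 calls with SLC-0111 came to 4 without hypoxia SLC-0111 replicate 1 or normoxia SLC-0111 replicate 3. UPF1 also fell in hypoxia with DMSO, by 0.40 ± 0.05 (edgeR adjusted p = 3.23e-07), and the difference between its compound effects passed at 0.32 ± 0.07 (0.00665).

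Of 26 other widely studied long noncoding RNAs, 23 were tested. With SLC-0111, 1 rose and 3 fell in hypoxia, and 3 rose and 0 fell in normoxia, where 16.3% and 23.6% of all genes were called. The 3 calls in normoxia came to 5 without hypoxia SLC-0111 replicate 4 or normoxia SLC-0111 replicate 1. NORAD fell to 1056 ± 17.1 CPM with SLC-0111 in hypoxia, against 1224 ± 38.6 CPM with DMSO, and TUG1 to 92.5 ± 6.82 CPM, against 117 ± 4.35 CPM (edgeR adjusted p = 0.000679 and 0.000287). Their compound effects differed between the oxygen levels, by -0.28 ± 0.06 for NORAD and -0.43 ± 0.08 for TUG1 (edgeR adjusted p = 0.00421 and 0.00277). Hypoxia raised 4 and lowered 11 with SLC-0111, and raised 6 and lowered 6 with DMSO, where 48.2% and 49.8% of all genes were called. UCA1 rose in hypoxia by 2.20 ± 0.14 with SLC-0111 and by 1.53 ± 0.14 with DMSO, and MIR17HG fell by 1.33 ± 0.16 and by 1.15 ± 0.17 (log2, SE).

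The snoRNAs themselves were almost absent from the counts. Of 14 snoRNA rows inside members, 12 were at 0 in all libraries, and all 14 together held 62 counts. SNORD99, in SNHG12, held 60 of these. GAS5 had no snoRNA row inside it, so nothing was read for its snoRNAs. No small RNA row inside a member reached 100 counts. How reads that fit both a host exon and a snoRNA were counted is not given in the sources used here. These rows therefore do not measure the snoRNAs, and they cannot show which transcripts the hosts' values hold.

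The genes most like each member over the 16 libraries were listed by Pearson's r of log2 CPM among 10627 genes, as a description with no test. For MIR210HG they were C1QL1 (r = 0.993), LDHA (0.992) and ENO1 (0.991). For GAS5 they were SHMT2 (0.974), PHGDH (0.970) and FAM107B (0.969). For SNHG8 they were RBCK1 (0.976), RPL22 (0.973) and NR1H3 (0.971), and for SNHG1 they were CNOT8 (0.987), IPMK (0.985) and IMPAD1 (0.983). MALAT1 was most like KCNQ1OT1 (0.943), ATM (0.939) and CCDC150 (0.924), and NEAT1 most like DYNC1H1 (0.950), VPS13B (0.910) and TAOK1 (0.908). SNHG15 was most like PHLDA2 (0.941), KPNA4 (0.935) and DHX37 (0.933), and SNHG12, with the lowest values, most like ZNF335 (0.828), LRCH4 (0.770) and USP4 (0.767). Among the members, MALAT1 and NEAT1 reached 0.896 and MIR210HG and SNHG1 0.944, where the points share the libraries, their depth and the 4 conditions.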

How the data were processed

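Total RNA of HUH6 cells was sequenced in 16 libraries, 4 per group. The authors deposited a table of raw gene counts, whole numbers with no scaling. The tools named are HISAT2, HTSeq, MultiQC 1.10.1 and edgeR 3.4.0, with the build GRCh38, per the submitters' processing notes. Versions of HISAT2 and HTSeq, the strand setting and the RNA selection are not given in the sources used here. All 58735 genes matched GENCODE 29, which gave types, coordinates and merged exon lengths. Members, lists and named-gene rules were chosen with earlier results of these data known.

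Counts were tested with edgeR 4.0.16 (R 4.3.3): filterByExpr (18385 genes), TMM scaling, robust quasi-likelihood fit with 1 mean per group and 12 residual degrees of freedom, and Benjamini-Hochberg adjustment over all genes, with calls at 0.05. The standard error of a log2 change was derived from its size and its F statistic (size over root F). The script was tested on simulated data. The common biological coefficient of variation was 0.0741. Replicate pairs differed by 2.27 to 71.5 times counting error (chi-square per degree of freedom), so none was treated as a copy.

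All members are named, and in other lists up to 4 called genes per contrast with the largest change and at least 1 CPM; for those lists, other genes named (ZFAS1, EPB41L4A-AS1 and SNHG7 in single contrasts) were chosen after their values were seen. For likeness, 3 genes per member with a mean of at least 5 CPM are named (log2 CPM with a prior count of 2). Alternatives were RLE scaling, library size alone, scaling on protein-coding genes, other filters, DESeq2 1.42.0, limma-voom 3.58.1, covariates, fits of only the groups compared, a replicate block and leaving out each library. The mitochondrial covariate, both ratios and the fit of numbered libraries without the block were added after seeing the data.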

Additional observations from a re-analysis of the deposited data

Results flagged for a closer look

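Of 40 measures checked in groups of 4 libraries, 2 had a library far from the other 3, and chance alone gives about 1 in 20. SNHG8 had 47.8 CPM in normoxia DMSO replicate 1, against 44.6 to 45.0 CPM in the other libraries of that group, and the gap took 0.881 of the range, past Dixon's critical value for 4 samples. The mitochondrial ribosomal RNA share was 5.82% in hypoxia DMSO replicate 2, against 4.52 to 4.65% in the others of its group, and that gap took 0.906 of the range.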

How the results depend on the processing

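The called changes of MIR210HG, GAS5, SNHG1 and SNHG8, and those of SNHG15 with oxygen, kept their direction and their side of the threshold under every alternative run, while those of SNHG12 and NEAT1 in hypoxia with DMSO kept their direction and lost the threshold in some. The cause of the following changes was not tested. SLC-0111 in normoxia called 4 members with library size alone (2 higher, 2 lower) and 2 to 5 when a library was left out, 5 without normoxia SLC-0111 replicate 1. When only the groups compared were fitted, SLC-0111 in hypoxia called 1971 genes, against 2989 in the main fit. The same setting moved SLC-0111 in normoxia the other way, to 5559 genes, against 4339 in the main fit. The difference of compound effects called 637 to 2040 genes and 0 to 1 members when a library was left out. It called 637 without hypoxia SLC-0111 replicate 3, 691 without normoxia DMSO replicate 2, 2040 without hypoxia DMSO replicate 1, and SNHG15 as the 1 member without hypoxia SLC-0111 replicate 4. Same-numbered libraries deviated together (r over 0.1) in 8 of 18 pairs, with a median r of 0.0764 and a highest of 0.351. In 55 other pairs the median r was -0.00676 and the highest 0.217. The main fit did not use the numbers, and these values do not settle whether they mark pairs. With the replicate block, on numbered libraries only, SLC-0111 in normoxia called 4 members (MALAT1 and NEAT1 besides). In that fit MALAT1 passed in hypoxia with DMSO (0.41, edgeR adjusted p = 0.0415), and SNHG12 did not (0.0654). The difference called 1881 genes with the block, against 623 for the same libraries without the block. On those libraries without the block, NEAT1 in hypoxia with DMSO was 0.84 (edgeR adjusted p = 0.0505). Signs turned among changes that had not passed. For SLC-0111 in normoxia, SNHG1 was -0.0597 with library size alone and -0.00168 on numbered libraries, and NEAT1 was -0.00610 with the mitochondrial covariate. For SLC-0111 in hypoxia, MALAT1 was -0.00682 with library size alone, -0.0898 with the protein-coding covariate and -0.0871 with the mitochondrial one. For hypoxia with SLC-0111, limma-voom gave 0.0609 for NEAT1 and -0.00105 for SNHG12, and MALAT1 and NEAT1 were 0.41 and 0.64 with the protein-coding covariate and 0.51 and 0.77 with the mitochondrial one. When a library was left out, SNHG1 ranged from -0.0109 to 0.0344 for SLC-0111 in normoxia and MALAT1 from -0.0551 to 0.169 in hypoxia; for hypoxia with SLC-0111, MALAT1 ranged from -0.199 to 0.158, NEAT1 from -0.186 to 0.336 and SNHG12 from -0.0316 to 0.114. Without mitochondrial genes the protein-coding shares were 95.5% in hypoxia SLC-0111, 96.1% in hypoxia DMSO, 94.6% in normoxia SLC-0111 and 95.6% in normoxia DMSO. List counts were compared for each combination of list, contrast and alternative setting. They moved by over 1.5 times, or to or from 0, in 141 combinations and not in 832. Other noncoding hosts called 0 to 5 for SLC-0111 in hypoxia, 4 to 9 in normoxia, 8 to 11 for hypoxia with SLC-0111 and 10 to 14 with DMSO. Low depth of hypoxia DMSO replicate 3 limits MIR210HG, SNHG12 and SNHG15, with 50, 38 and 32 counts there.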
